A study of Mus musculus with 16 samples.

Results

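Uninjured striatum of GS mice was compared with uninjured striatum of wild-type (WT) mice, with 2 libraries of each genotype. These 4 libraries were taken from a series of 16 by their labels alone, as the GS and WT samples called intact, to which the labels give neither a treatment nor a time. GS was read as carriage of G2019S in LRRK2, the change that the series title names. The other 12 libraries came from mice of the same genotypes at 6 h, 3 d or 15 d after 0.8 µl of 500 mM ATP was injected into the striatum on 1 side, with 2 libraries in each group. They entered the estimate of the spread and gave the same genotype difference in injured tissue from libraries that the intact comparison does not use. The labels do not say how the GS mice were made or which promoter drives the changed protein, nor the strain, age, sex or number of animals per library. The labels call the replicates biological, and p-values measure the spread between these libraries.

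LRRK2 is a large kinase and GTPase that phosphorylates a subset of Rab GTPases, the switches that direct vesicles between compartments. The change named in the title lies in the activation segment of the kinase domain, raises kinase activity and is a common inherited cause of Parkinson disease. The striatum receives dopamine from the midbrain and consists mostly of GABA projection neurons, which express Lrrk2 strongly. Direct pathway projection neurons carry the dopamine receptor gene Drd1 and indirect pathway projection neurons carry Drd2 and the adenosine receptor gene Adora2a. Astrocytes, microglia, oligodendrocytes and vessels make up much of the remaining tissue.

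The reference sequence of the mouse gene is shown around codon 2019, the position that the name G2019S gives. Whether the GS mice carry the change at this site of the mouse genome is not stated in the labels. Codon 2019 of the 2527 coding codons of Lrrk2 lies at positions 91787072 to 91787074 of chromosome 15 on the + strand, in exon 41 of 51 (GRCm38, which is mm10, GENCODE annotation). In the reference it encodes glycine and is in capitals, with 30 coding bases on each side. The count table holds no reads, so the allele of each library was not analysed here.

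Lrrk2 codon 2019, chr15:91787042-91787104, + strand: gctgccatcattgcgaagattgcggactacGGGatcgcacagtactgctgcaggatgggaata

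The 4 intact libraries held 53895464 to 61734030 counts, and all 16 held 49220578 to 63948110. Mitochondrial genes took 10.3 to 12.1% of the counts in the intact libraries. Of 19457 genes in the table, 18813 were tested. The gene markers of striatal projection neurons were abundant in all 4 (Drd1 244 to 289 CPM, Ppp1r1b 1951 to 2421 CPM, the count scaled to the effective size of the library). Tissue next to the striatum entered unevenly. The summed level of 18 cortical excitatory neuron genes was 827 and 554 CPM in WT replicates 1 and 2 and 626 and 588 CPM in GS replicates 1 and 2. The summed level of 18 choroid plexus genes was 287 and 383 CPM in WT and 839 and 341 CPM in GS. WT replicate 1 thus stood apart in cortical genes and GS replicate 1 in choroid plexus genes. Of the injured libraries, GS 6 h replicate 2 stood apart in Y-linked genes, with Ddx3y at 18.1 CPM against 30.9 to 60.0 CPM elsewhere. Without it the Psme4 difference was -1.04 in intact and -0.90 in injured striatum, and 1 gene was called in intact striatum. The cortical marker Slc17a7, a vesicular glutamate transporter gene, was at 136, 15.6, 30.3 and 30.4 CPM in the same order, and the choroid plexus marker Ttr (transthyretin) was at 27.6, 72.0, 359 and 56.9 CPM.

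Few genes separated the genotypes in intact striatum. A gene is called here when its adjusted p is under 0.05 in edgeR's quasi-likelihood test, adjusted over all genes tested. Of 18813 genes, 3 were called (0.0159%). Psme4 was lower in GS (1 gene, 0.00532%), and Bach2 and Ldlrad4 were higher (2 genes, 0.0106%). At an unadjusted p under 0.05 there were 2056 genes (10.9%), 1038 higher in GS (5.52%) and 1018 lower (5.41%). The median log2 fold change over all genes was -0.0088, GS minus WT, and this is the direction of every difference below. The fitted difference reached 2-fold in 334 genes (1.78%). The 95% interval excluded a 1.5-fold difference in both directions for 11634 genes (61.8%) and a 2-fold difference for 14892 (79.2%). Between 2 WT libraries the median absolute log2 difference per gene was 0.0991 over the 15049 genes with at least 1 CPM, and between 2 GS libraries it was 0.101. Between a WT and a GS library it ran from 0.111 to 0.145, so every such pair was further apart than either pair of the same genotype. DESeq2 called 165 genes, 126 higher and 39 lower in GS (1.26% of 13044 genes with an adjusted p, and 0.966% for those higher), and limma-voom called 6.

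**Figure D1:**
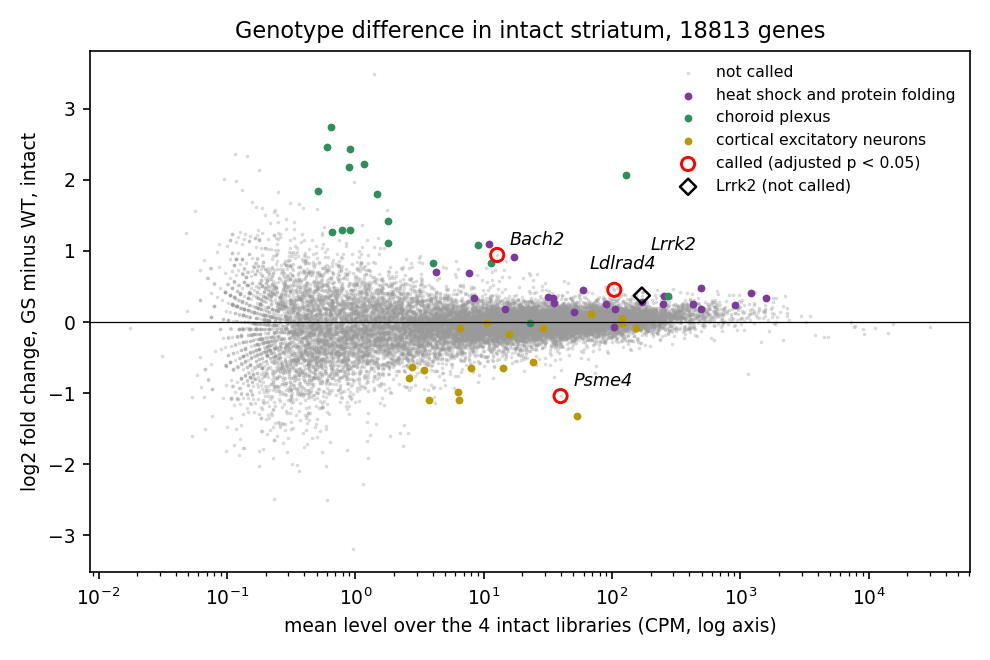
Log2 fold change of each of 18813 genes in intact striatum (GS minus WT, vertical axis) against its mean level over the 4 intact libraries (CPM, log axis), with 3 gene lists coloured, called genes ringed in red and Lrrk2 as a black diamond. Psme4, Bach2 and Ldlrad4 are the ringed genes. Most heat shock genes lie above 0, while the choroid plexus and cortical genes with large differences follow 1 library each.

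Psme4 encodes PA200, a large cap that binds the ends of the proteasome core and acts in nuclear proteolysis, including turnover of acetylated histones (NCBI Gene 103554, chromosome 11, positions 30771775 to 30881150). In intact striatum it was at 56.2 and 50.8 CPM in WT and at 25.0 and 27.1 CPM in GS. Its log2 fold change was -1.04 ± 0.071 (SE, 2 libraries a side; 95% interval -1.19 to -0.89), with an edgeR adjusted p of 9.63e-06. The level in GS was 0.486 times the level in WT. The genotypes lay far apart against the gap between replicates. The injured libraries gave the same picture. At 6 h the levels were 58.5 and 58.8 CPM in WT and 33.2 and 33.1 CPM in GS. At 3 d they were 65.7 and 65.2 CPM in WT and 32.1 and 35.5 CPM in GS. At 15 d they were 58.4 and 58.9 CPM in WT and 31.1 and 30.7 CPM in GS. All 8 GS libraries lay below all 8 WT libraries, which held for Psme4 alone among the genes tested (1 gene, 0.00532%). The mean difference over the 3 injured stages was -0.90 ± 0.041 (edgeR adjusted p = 3.16e-08), and Psme4 was the 1 gene called in that comparison (0.00532%, with 1617 genes or 8.6% at an unadjusted p under 0.05). The intact difference minus the injured one did not pass (edgeR adjusted p = 0.617). Psme4 was called in intact striatum without each of the 16 libraries in turn and under all 12 other alternatives.

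The opposite pattern, all 8 GS libraries above all 8 WT libraries, held for 2 genes (0.0106%), which were chosen for naming after their values were seen. The pseudogene Gm4852 was at 0.160 and 0.131 CPM in WT and 0.239 and 0.188 CPM in GS intact striatum, and the long noncoding RNA gene LOC115488769 was at 1.23 and 1.09 CPM in WT and 1.35 and 1.73 CPM in GS. Neither was called in intact striatum (edgeR adjusted p = 0.684 for Gm4852 and 0.718 for LOC115488769). Gm4852 sat at a level where a library holds few reads of the gene.

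**Figure D2:**
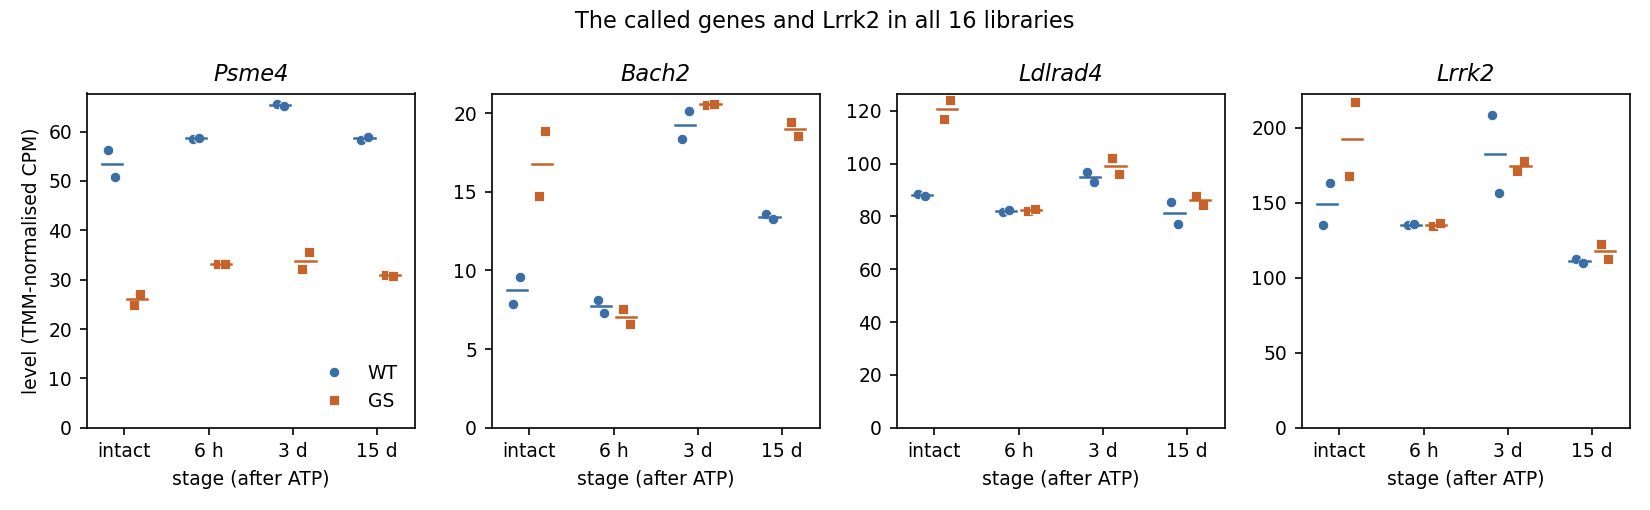
Levels (TMM-normalised CPM, vertical axes from 0) of Psme4, Bach2, Ldlrad4 and Lrrk2 in all 16 libraries by stage (horizontal axes), with WT as blue circles, GS as orange squares and a bar at the mean of each pair. Psme4 is lower in GS at every stage, while the genotypes lie apart in intact striatum for Bach2 and Ldlrad4 and touch or overlap at 6 h.

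The Psme4 promoter is shown because Psme4 was the gene called in both intact and injured striatum. It was taken from RefSeq on build GRCm38.p6 as the 250 bases before the annotated start. It held 20 CpG dinucleotides and 63.6% G and C, against medians of 6 and 52.4% over 32851 promoters, and 82.1% of promoters held fewer CpG. The ETS factor motif CCGGAAGT, searched on both strands, is in capitals and begins 53 bases before the start. It occurred in the promoters of 3.23% of 27025 genes and of 3 of 18 genes of the proteasome list (Psme4, Psmc1 and Pomp). The core TGACNNNGC of the antioxidant response element, through which the factor Nfe2l1 is known to act on proteasome genes, was not in the Psme4 window, and it was in the promoters of 1 of 18 proteasome genes (Psmb5) and 11.5% of all genes. These matches describe letters in the window, and no reads of the promoter were analysed.

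Psme4 promoter, chr11:30771525-30771774, + strand: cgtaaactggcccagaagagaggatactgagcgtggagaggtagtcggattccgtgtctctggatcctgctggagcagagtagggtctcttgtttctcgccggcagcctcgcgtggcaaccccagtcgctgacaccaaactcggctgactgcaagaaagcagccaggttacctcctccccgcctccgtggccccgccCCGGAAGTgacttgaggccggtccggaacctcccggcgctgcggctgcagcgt

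No other proteasome gene was called with Psme4. Of 19 genes of the proteasome and its activators, 1 was called, Psme4, and no other member had an unadjusted p under 0.05. The list's median log2 fold change was 0.0036 in intact and -0.0014 in injured striatum. The activator gene Psme1 (PA28 alpha) was at 14.6 and 13.1 CPM in WT and 13.8 and 9.63 CPM in GS (-0.24 ± 0.17), and Psme2 (PA28 beta) at 13.4 and 12.1 CPM in WT and 13.01 and 12.7 CPM in GS (0.01 ± 0.11). Psme3, the nuclear activator gene PA28 gamma, was at 81.4 and 83.6 CPM in WT and 79.3 and 87.3 CPM in GS (0.01 ± 0.063). The core subunit gene Psmb5 had a difference of 0.12 ± 0.10. For 14 of the 19 the 95% interval excluded a 1.5-fold difference, against 61.8% of all genes.

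Genes next to Psme4 on chromosome 11 were not called either. Of 55 tested neighbours within 5 Mb, edgeR called 0, and 2 were higher and 6 lower at an unadjusted p under 0.05, with a median of -0.0076. The nearest tested genes on either side were Acyp2, which starts 266 kb before the start of Psme4 (-0.07 ± 0.16), and Erlec1, which starts 91.0 kb after it (-0.14 ± 0.076). The spans of Erlec1 and Psme4 overlap, so some reads could belong to either. Around Lrrk2 on chromosome 15, 0 of 80 neighbours were called, with 3 higher and 7 lower at an unadjusted p under 0.05 and a median of -0.034. Over the autosomes and chromosome X the share of genes at that p ran from 9.24% (chromosome 2) to 12.9% (chromosome X), and it was 11.7% on chromosome 15.

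**Figure D3:**
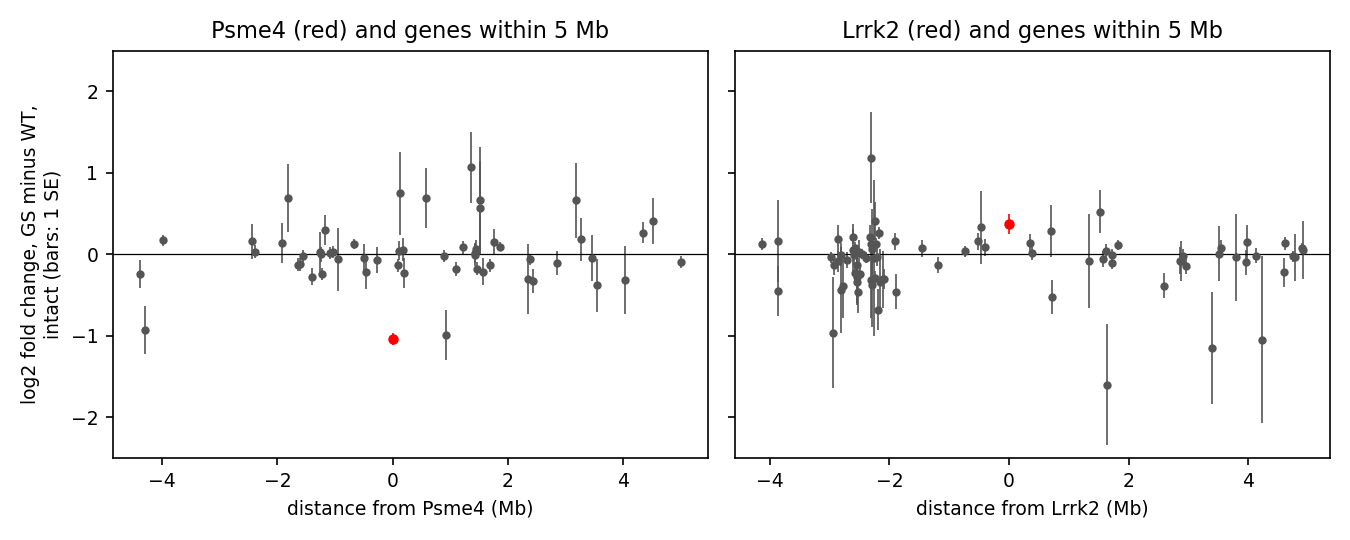
Log2 fold change in intact striatum (GS minus WT, points, with bars of 1 SE) of Psme4, Lrrk2 (red) and the tested genes within 5 Mb of each, against the distance between gene starts (Mb). Psme4, at -1.04, stands alone among neighbours with small errors, and edgeR called no neighbour of either gene.

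Bach2 encodes a transcription repressor best known from B and T lymphocytes and also expressed in neurons (NCBI Gene 12014, chromosome 4, positions 32238413 to 32586109). It was at 7.85 and 9.61 CPM in WT and at 14.7 and 18.8 CPM in GS intact striatum. The difference was 0.94 ± 0.13 (95% interval 0.66 to 1.22, edgeR adjusted p = 0.0314), and the 2 pairs did not overlap. In injured tissue the mean difference was 0.16 ± 0.075 (edgeR adjusted p = 0.586). Its levels at 6 h were 8.15 and 7.27 CPM in WT and 7.53 and 6.59 CPM in GS, and at 3 d they were 18.4 and 20.1 CPM in WT and 20.5 and 20.5 CPM in GS. At 15 d they were 13.6 and 13.3 CPM in WT and 19.5 and 18.6 CPM in GS. GS lay above WT at 15 d, and the pairs overlapped at 6 h. The call was lost without any of 10 of the 16 libraries (WT intact replicate 1, GS intact replicate 2, each 6 h library, each GS 3 d library and each GS 15 d library). Over all 16 the log2 fold change ran from 0.77 to 1.11 and the edgeR adjusted p from 0.0150 to 0.677. With the choroid plexus score as a covariate the difference was not smaller, at 1.03 ± 0.15, but the call was lost (edgeR adjusted p = 0.0860). The call was also lost in a fit of the 4 intact libraries alone (0.94 ± 0.15, edgeR adjusted p = 0.211).

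Ldlrad4 encodes a membrane protein that restrains TGF-beta signalling by binding SMAD proteins (NCBI Gene 52662, chromosome 18, positions 67932274 to 68260550). It was at 88.5 and 87.6 CPM in WT and at 117 and 124 CPM in GS intact striatum. The difference was 0.45 ± 0.064 (95% interval 0.32 to 0.59, edgeR adjusted p = 0.0314), several times the gap between replicates. At 6 h it was at 81.5 and 82.3 CPM in WT and 82.0 and 82.6 CPM in GS, and the mean difference over the injured stages was 0.05 ± 0.037 (edgeR adjusted p = 0.753). The call was lost without any of 9 of the 16 libraries (both WT intact libraries, GS intact replicate 2, each 6 h library and both GS 15 d libraries), with edgeR adjusted p up to 0.604 and log2 fold changes of 0.42 to 0.50. The call was lost with the choroid plexus score as a covariate as well, where the difference was 0.46 ± 0.081 (edgeR adjusted p = 0.215). The difference between the intact and the injured genotype effect did not pass for Bach2 (edgeR adjusted p = 0.197) or Ldlrad4 (edgeR adjusted p = 0.194).

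Lrrk2 itself was at 135 and 163 CPM in WT and at 168 and 217 CPM in GS intact striatum (NCBI Gene 66725, chromosome 15, positions 91672791 to 91816124). Both GS libraries lay above both WT libraries, but the highest WT and the lowest GS value nearly met. The difference was 0.37 ± 0.13 (95% interval 0.10 to 0.65), and it was not called (edgeR adjusted p = 0.338). It was 0.18 without GS intact replicate 2, 0.24 without WT intact replicate 1 and 0.55 without GS intact replicate 1. It was called under none of the alternatives. In injured tissue the mean difference was 0.0073 ± 0.074. A change of 1 residue need not alter the transcript level, so these values do not check the genotype.

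Some genes lay just outside the threshold and were chosen for naming after their values were seen. Wsb1, a substrate receptor gene of a ubiquitin ligase, was at 95.1 and 85.9 CPM in WT and 65.1 and 53.1 CPM in GS (-0.61 ± 0.094, edgeR adjusted p = 0.0508). Cobl, the gene of the actin nucleator cordon-bleu, was at 81.3 and 89.4 CPM in WT and 114 and 124 CPM in GS (0.48 ± 0.074, edgeR adjusted p = 0.0508). Neither pair of groups overlapped. The phosphatase gene Ptpn7 was at 16.03 and 15.9 CPM in WT and 22.8 and 26.3 CPM in GS (0.62 ± 0.099, edgeR adjusted p = 0.0589). Synpo2, an actin-binding protein gene, was at 16.4 and 17.8 CPM in WT and 24.2 and 31.1 CPM in GS (0.69 ± 0.12, edgeR adjusted p = 0.0762). In the injured libraries these 4 genes had mean differences of -0.11, -0.0012, -0.02 and -0.01.

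Another 5 genes with GS below WT were picked for naming after their values were seen, and they stand for no list. Prpf39, a U1 snRNP-associated splicing gene, was at 68.4 and 65.7 CPM in WT and 47.0 and 47.8 CPM in GS (-0.50 ± 0.094). Taf1d, a component of the RNA polymerase I initiation factor and host of small nucleolar RNAs, was at 25.5 and 25.5 CPM in WT and 17.9 and 18.1 CPM in GS (-0.50 ± 0.096). The replicates of each genotype nearly coincided in both genes. The splicing factor gene Srsf2 (-0.26 ± 0.058), the ribonucleoprotein gene Hnrnpdl (-0.33 ± 0.071) and the arginine/serine-rich protein gene Rsrp1 (-0.36 ± 0.069) also had GS below WT without overlap. None of the 5 was called by edgeR (adjusted p = 0.125 to 0.185). DESeq2 called all 5, against 1.26% of all genes with an adjusted p in either direction. As the 5 were picked with their values known, that count says nothing about them as a set.

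The LRRK2 pathway showed small differences. Among 16 genes of LRRK2 kinases and Rab regulators edgeR called 0, and 2 had an unadjusted p under 0.05, against 10.9% of all genes. They were Lrrk2 and the scaffold gene Mapk8ip3 (0.16 ± 0.071), which encodes the phospho-Rab effector JIP3. The list's median was 0.034. Lrrk1, the related kinase gene, was at 3.95 and 2.95 CPM in WT and 3.57 and 3.23 CPM in GS (-0.02 ± 0.28). Ppm1h, the phosphatase that removes LRRK2's mark from Rabs, differed by 0.09 ± 0.084 and the retromer gene Vps35 by -0.01 ± 0.075. The genotypes overlapped in these 3 genes.

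Among 13 Rab GTPase genes whose products LRRK2 phosphorylates, edgeR called 0, and 0 had an unadjusted p under 0.05. Their log2 fold changes ran from -0.11 to 0.13 with a median of 0.056, and for 13 of 13 the 95% interval excluded a 1.5-fold difference, against 61.8% of all genes. Rab10 was at 133 and 141 CPM in WT and 140 and 145 CPM in GS (0.06 ± 0.064), and Rab8a at 31.3 and 32.2 CPM in WT and 32.7 and 31.5 CPM in GS (0.01 ± 0.071). The synaptic vesicle Rab genes Rab3a (0.10 ± 0.073) and Rab3b (0.13 ± 0.13) did not pass. Rab29, a Rab that recruits LRRK2 to membranes, was listed with the regulators and differed by 0.22 ± 0.27 at a level near 2 CPM.

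Of 18 other genes of inherited Parkinson disease edgeR and DESeq2 called 0, and 1 had an unadjusted p under 0.05, against 10.9% of all genes. Pink1, a mitochondrial quality control kinase gene, differed by 0.07 ± 0.076. For 17 of the 18 the interval excluded a 1.5-fold difference, against 61.8% of all genes, and the median was 0.062.

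Markers of the projection neurons mostly had positive differences, although edgeR called none of them. In the indirect pathway list 9 of 9 genes had a positive log2 fold change, 4 had an unadjusted p under 0.05, against 5.52% of all genes on that side, and the median was 0.27. Drd2 was at 265 and 307 CPM in WT and 349 and 421 CPM in GS (0.43 ± 0.098, edgeR adjusted p = 0.209). Adora2a was at 344 and 384 CPM in WT and 470 and 484 CPM in GS (0.39 ± 0.085, edgeR adjusted p = 0.185). Both GS libraries exceeded both WT libraries in 6 of 9 members, against 22.4% of all genes tested. Gpr6, an orphan receptor gene (0.35 ± 0.13), and Grik3, a kainate receptor gene (0.33 ± 0.082), followed, while the enkephalin precursor gene Penk overlapped (1230.3 and 1405 CPM in WT, 1366 and 1612 CPM in GS). DESeq2 called 3 of the 9, against 0.966% of all genes that it called higher. In injured striatum the list did not keep this sign, with 1 of 9 genes positive and a median of -0.067.

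In the direct pathway list the median over 9 genes was 0.094. It was 0.033 without GS intact replicate 2 and 0.17 without WT intact replicate 2. Drd1 was at 244 and 276 CPM in WT and 260 and 289 CPM in GS (0.08 ± 0.11), and the substance P precursor gene Tac1 at 166 and 211 CPM in WT and 177 and 223 CPM in GS (0.09 ± 0.15). Each of these genes followed the replicate number rather than the genotype. The transcription cofactor gene Eya1 (0.31 ± 0.096) and the muscarinic receptor gene Chrm4 (0.20 ± 0.087) were on the GS side at an unadjusted p under 0.05. Pdyn, which encodes the opioid precursor prodynorphin, lay on the other side, at 75.9 and 86.2 CPM in WT and 66.6 and 55.5 CPM in GS (-0.41 ± 0.15, edgeR adjusted p = 0.353). In injured striatum 3 of the 9 direct pathway genes were positive, with a median of -0.042. The difference between the direct and indirect lists was not tested.

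Genes that carry the dopamine and cAMP signal of projection neurons had the same sign. Of 22 members 19 were positive, 9 had an unadjusted p under 0.05, all of them positive (against 5.52% of all genes), and both GS libraries lay above both WT libraries in 16, against 22.4% of all genes. The median was 0.18. Their summed level was 17224 and 18453 CPM in WT and 19438 and 21632 CPM in GS. The cyclic nucleotide phosphodiesterase gene Pde10a was at 1862 and 2038 CPM in WT and 2307 and 2735 CPM in GS (0.37 ± 0.093). Rasd2, the gene of the small GTPase Rhes, was at 682 and 729 CPM in WT and 873 and 972 CPM in GS (0.39 ± 0.090). Adcy5, the main striatal adenylyl cyclase, was at 1549 and 1667 CPM in WT and 1915 and 1991 CPM in GS (0.28 ± 0.075). In these 3 genes the lowest GS value was above the highest WT value by more than the WT replicates differed. Gnal, the olfactory-type G protein alpha subunit that couples dopamine and adenosine receptors to the cyclase (0.31 ± 0.080), and Ptpn5, the striatal-enriched phosphatase (0.30 ± 0.098), had the same sign. Ppp1r1b, which encodes DARPP-32, was at 1951 and 2047 CPM in WT and 2233 and 2421 CPM in GS (0.22 ± 0.10). EdgeR called none of the 22 (lowest adjusted p = 0.219), and DESeq2 called 4, all higher, against 0.966% of all genes.

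This list did not repeat its pattern after injury. Its median difference over the injured stages was -0.071, with 2 of 22 members positive. The intact difference minus the injured one had an unadjusted p under 0.05 for 15 of 22 members, against 9.42% of all genes (1773 of 18813). EdgeR called 0 genes of 18813 in that comparison (0%) and limma-voom 0. DESeq2 called 143 of the 19457 genes that it fitted, 137 positive and 6 negative. The number of these genes with an adjusted p was not counted, so this share cannot be set beside the DESeq2 percentages above. Among the members, Adcy5, Gnal, Pde10a, Ppp1r1b, Ptpn5, Rasd2 and Rasgrp2 passed in DESeq2.

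**Figure D4:**
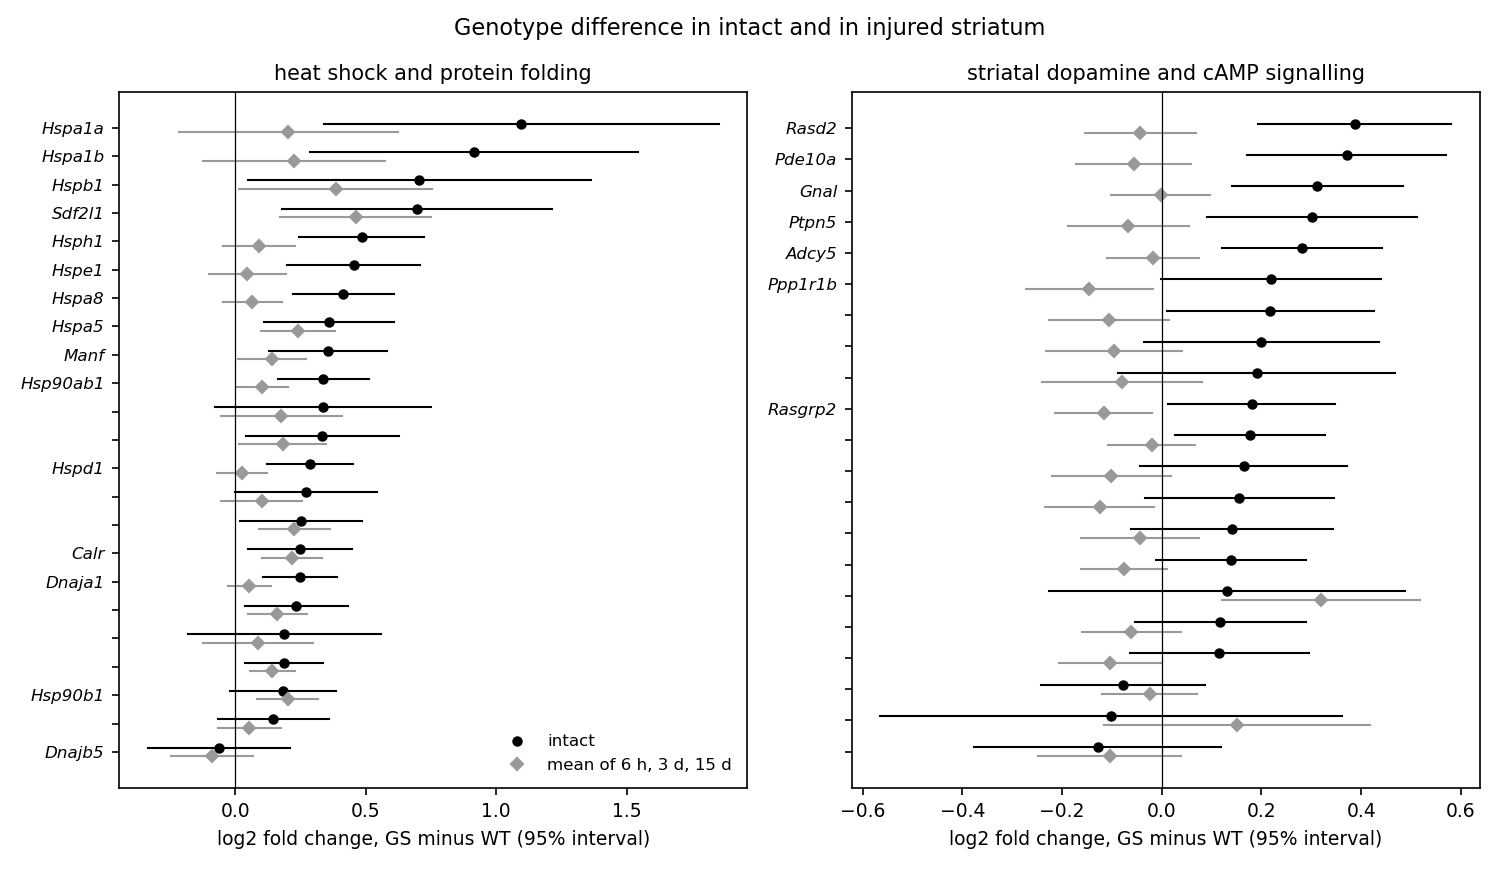
Log2 fold change (GS minus WT, horizontal axes) with 95% intervals of members of the heat shock list (left) and the striatal dopamine and cAMP list (right), in intact striatum (black circles) and as the mean of the 3 injured stages (grey diamonds). Genes described in the text are labelled, and 1 member of the right-hand list is not shown. The intact values lie mostly above 0 in both lists, and the injured values lie nearer to 0, with most of those on the right below 0.

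The 4 intact libraries were ordered in these neuronal genes, with WT replicate 1 lowest and GS replicate 2 highest. WT replicate 1 was also the library with the most cortical RNA. Without it the median of the dopamine and cAMP list was 0.12 and that of the indirect pathway list 0.17. With the cortical score as a covariate the dopamine and cAMP median was 0.17, and with both first intact libraries left out it was 0.18. In bulk tissue a larger share of a cell type and more RNA of a gene per cell cannot be told apart.

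Ion channel genes had the same sign as most projection neuron genes. Of 33 members 27 were positive, 11 had an unadjusted p under 0.05, all of them positive (against 5.52% of all genes), and the median was 0.15 in intact and -0.050 in injured striatum. Cacna1i, a T-type calcium channel gene, was at 146 and 151 CPM in WT and 183 and 215 CPM in GS (0.42 ± 0.075, edgeR adjusted p = 0.125). Scn4b, a sodium channel beta subunit gene rich in striatum, was at 1665 and 1658 CPM in WT and 1989 and 2212 CPM in GS (0.34 ± 0.081, edgeR adjusted p = 0.219). The genotypes were well separated in both. The calcium channel gene Cacna1c (0.27 ± 0.070) and the potassium channel gene Kcna2 (0.25 ± 0.11) had the same sign, and Kcna1 (0.06 ± 0.12) did not separate. EdgeR called none of the 33, and DESeq2 called Cacna1c, Cacna1i and Scn4b, against 0.966% of all genes that it called higher.

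Genes of synapses in general had medians nearer to 0. For 23 genes of synaptic vesicles and release the median was 0.077, and the release genes Unc13a (0.19 ± 0.077) and Bsn (0.23 ± 0.079) were positive at an unadjusted p under 0.05. The vesicle protein genes Syn1 (-0.02 ± 0.081) and Syn2 (-0.01 ± 0.072) were alike in the 4 libraries. For 31 glutamate and GABA receptor genes the median was -0.033, with 3 positive and 3 negative at that p (against 5.52% and 5.41% of all genes). The AMPA receptor gene Gria1 had 0.17 ± 0.092 and Gria2 -0.03 ± 0.10. EdgeR and DESeq2 called none of either list.

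Interneuron genes mostly had negative differences, but the list as a whole did not separate the genotypes. Of 18 members 4 were positive and 14 negative, with a median of -0.068, which was -0.021 without WT intact replicate 2. Both GS libraries lay above both WT libraries in 2 members and below in 3, against 22.4% and 22.3% of all genes. The median deviation from each gene's mean was -0.037 and 0.0024 in WT and -0.027 and 0.0026 in GS replicates 1 and 2. Chat, the acetylcholine-synthesising enzyme gene, was at 32.4 and 35.2 CPM in WT and 37.6 and 44.5 CPM in GS (0.28 ± 0.11), and the vesicular acetylcholine transporter gene Slc18a3 was at 11.1 and 10.9 CPM in WT and 13.5 and 13.7 CPM in GS (0.30 ± 0.13). These 2 genes of cholinergic interneurons had no overlap between genotypes, whereas the choline transporter gene Slc5a7 (-0.01 ± 0.15) and the transcription factor gene Lhx8 (-0.07 ± 0.14) of the same cells overlapped. Sst (somatostatin, -0.07 ± 0.090) and Npy (neuropeptide Y, -0.01 ± 0.080) overlapped. Vip was at 3.17 and 0.638 CPM in WT and 0.291 and 0.496 CPM in GS (-2.27 ± 0.57), highest in WT replicate 1, which also held the most cortical RNA. EdgeR called none of the 18 members tested.

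Heat shock and protein folding genes were mostly higher in GS, with the largest positive median of the 40 lists after that of the choroid plexus genes. These chaperones refold proteins in the cytosol, mitochondria and endoplasmic reticulum and are controlled by heat shock factor 1 or the unfolded protein response. Of 23 members 22 were positive and 17 had an unadjusted p under 0.05, all of them positive, against 5.52% of all genes. Both GS libraries lay above both WT libraries in 19 of 23, against 22.4% of all genes, and in 0 did they lie below, against 22.3%. The median was 0.33. The summed level was 5298 and 6040 CPM in WT and 6630 and 7511 CPM in GS. EdgeR called none of the 23, and DESeq2 called 6 (Hspa8, Hsph1, Hsp90ab1, Hspd1, Hspe1 and Dnaja1), against 0.966% of all genes that it called higher.

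Among inducible cytosolic chaperones, Hspa1a was at 6.61 and 7.47 CPM in WT and 13.8 and 16.3 CPM in GS (1.10 ± 0.35, edgeR adjusted p = 0.320). Its neighbour Hspa1b was at 11.2 and 12.6 CPM in WT and 20.4 and 24.4 CPM in GS (0.91 ± 0.29), and reads cannot be assigned with certainty between these near-identical copies. Both genes were higher in both GS libraries, and neither was called. The constitutive Hsp70 gene Hspa8 was at 949 and 1146 CPM in WT and 1292 and 1498 CPM in GS (0.41 ± 0.090, edgeR adjusted p = 0.185). Hsph1, a nucleotide exchange factor of Hsp70, was at 365 and 451 CPM in WT and 509 and 633 CPM in GS (0.49 ± 0.11, edgeR adjusted p = 0.209). Hsp90ab1 was at 1314 and 1484 CPM in WT and 1701 and 1835 CPM in GS (0.34 ± 0.081). In each of these 3 abundant genes the libraries stood in the order WT 1, WT 2, GS 1, GS 2. The Hsp90 co-chaperone genes Ahsa1 (86.4, 96.4, 119 and 136 CPM in that order) and Stip1 (133, 161, 182 and 213 CPM), which are outside the list and were named after their values were seen, showed it too.

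Mitochondrial and endoplasmic reticulum chaperones shared the sign. Hspe1 and Hspd1, which encode the 2 parts of the mitochondrial chaperonin, had differences of 0.45 ± 0.12 and 0.29 ± 0.077. Hspa5, the endoplasmic reticulum chaperone BiP, was at 207 and 236 CPM in WT and 265 and 304 CPM in GS (0.36 ± 0.12), and the stress-induced factor genes Manf (0.36 ± 0.11) and Sdf2l1 (0.70 ± 0.24) were also positive. Dnajb5 was the 1 negative member (-0.06 ± 0.13). In injured striatum 22 of 23 members were positive with a median of 0.14. The endoplasmic reticulum genes Calr (0.25 ± 0.092 intact, 0.22 ± 0.053 injured) and Hsp90b1 (0.18 ± 0.095 intact, 0.20 ± 0.055 injured) kept their size, while Hspa8 (0.07 ± 0.052 injured) and Hsph1 (0.09 ± 0.064 injured) were smaller. The list's median was 0.21 without WT intact replicate 1 and 0.43 without WT intact replicate 2. It was positive under all 28 alternatives, but many of these left out an injured library, which bears little on an intact difference. The list of LRRK2 kinases and Rab regulators, with a median of 0.034, was also positive under all 28. The count of 28 thus does not set the heat shock list apart.

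Promoters of 2 heat shock genes are shown because members of this list stood together. They are 250 bases before the RefSeq start on build GRCm38.p6. The heat shock element, the motif of heat shock factor 1, was searched on both strands as GAANNTTC, alone or followed by NNGAA, and matches are in capitals. The longer form, in 2 overlapping matches in the Hspe1 promoter, was in the promoters of 2 of 18 list genes (Hspd1 and Hspe1, which start back to back) and of 0.514% of all genes. The shorter form was in 6 of 18 (those and Hspa1a, Hspa1b, Hspb1 and Dnaja1) and in 7.73% of all genes. The promoters of the other 5 list genes were not analysed here. The members with a match did not all stand highest, and the list with its members was known before this search.

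Hspe1 promoter, chr1:55087898-55088147, + strand: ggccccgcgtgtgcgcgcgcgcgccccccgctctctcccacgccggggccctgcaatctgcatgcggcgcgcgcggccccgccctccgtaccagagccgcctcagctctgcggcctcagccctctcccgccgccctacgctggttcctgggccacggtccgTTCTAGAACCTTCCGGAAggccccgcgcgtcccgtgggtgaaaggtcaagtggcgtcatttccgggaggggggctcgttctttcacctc

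Hspa1a promoter, chr17:34972157-34972406, - strand: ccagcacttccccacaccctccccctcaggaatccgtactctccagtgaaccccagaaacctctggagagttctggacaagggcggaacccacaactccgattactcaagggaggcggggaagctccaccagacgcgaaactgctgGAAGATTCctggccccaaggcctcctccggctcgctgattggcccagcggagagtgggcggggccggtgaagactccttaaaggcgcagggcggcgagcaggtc

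The cold-inducible RNA-binding protein genes stood in the reverse order to the heat shock genes, and they were named after their values were seen. Rbm3 was at 52.9 and 44.7 CPM in WT and 32.3 and 28.9 CPM in GS (-0.67 ± 0.17, edgeR adjusted p = 0.238). Cirbp was at 46.7 and 38.0 CPM in WT and 32.4 and 26.2 CPM in GS (-0.53 ± 0.15, edgeR adjusted p = 0.279). Neither was called by edgeR, DESeq2 called Rbm3, and in injured tissue the mean differences were -0.03 ± 0.099 and 0.02 ± 0.087.

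Genes that report recent activity, time of day or stress hormones gave small or mixed differences. Of 29 immediate early genes 21 were negative, 3 with an unadjusted p under 0.05 (against 5.41% of all genes), and the median was -0.17. It rested on GS intact replicate 1, as it was 0.015 without that library and -0.45 without GS intact replicate 2. Nr4a1, an activity-induced nuclear receptor gene, was at 85.3 and 98.4 CPM in WT and 39.3 and 72.1 CPM in GS (-0.72 ± 0.31), and the kinase gene Sik1 was at 17.9 and 20.5 CPM in WT and 12.96 and 14.2 CPM in GS (-0.50 ± 0.12, DESeq2 adjusted p = 0.0298). Fos was at 8.26 and 14.3 CPM in WT and 4.87 and 10.2 CPM in GS (-0.58 ± 0.32), so its genotypes overlapped. In 17 clock and day-night genes the median was 0.015, and -0.014 without GS intact replicate 2. Per1 (-0.15 ± 0.14) and Per2 (0.28 ± 0.15) did not pass, and Arntl, the core clock activator BMAL1, had 0.38 ± 0.12. In 16 glucocorticoid response genes the median was 0.10, but -0.15 without GS intact replicate 2 and 0.25 without GS intact replicate 1, with Fkbp5 at 0.17 ± 0.18 and Sgk1 at -0.14 ± 0.17. EdgeR called none of the genes of these 3 lists.

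Endothelial genes mostly had positive differences. Of 20 members 17 were positive, 6 had an unadjusted p under 0.05 (all positive, against 5.52% of all genes), 13 had GS above WT without overlap (against 22.4%), and the median was 0.27. It was 0.14 without WT intact replicate 2 and 0.41 without WT intact replicate 1. The tight junction gene Cldn5 was at 9.65 and 7.40 CPM in WT and 11.3 and 13.9 CPM in GS (0.56 ± 0.20). The adhesion molecule gene Pecam1 was at 9.63 and 8.86 CPM in WT and 13.5 and 14.4 CPM in GS (0.59 ± 0.19). Ly6a, a surface antigen gene of brain endothelium, was at 10.4 and 11.6 CPM in WT and 16.1 and 17.9 CPM in GS (0.63 ± 0.14, edgeR adjusted p = 0.185). WT and GS were apart in all 3 genes, and WT replicate 2 rather than replicate 1 was lowest in the first 2. The glucose transporter gene Slc2a1 was close to level (0.15 ± 0.11). Pericyte and smooth muscle genes had a median of 0.038, which was -0.057 without GS intact replicate 1, with Pdgfrb at 0.01 ± 0.099. In injured tissue the endothelial median was 0.060. EdgeR called none, and DESeq2 called Ly6a and Ly6c1 (against 0.966% of all genes that it called higher).

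Glial genes had medians close to 0 in intact striatum. For 16 astrocyte genes the median was -0.0081 and for 13 homeostatic microglia genes 0.0042, and neither list had a member at an unadjusted p under 0.05. Gfap, the astrocyte intermediate filament gene, was at 27.2 and 32.8 CPM in WT and 31.2 and 27.7 CPM in GS (-0.02 ± 0.22). P2ry12, the microglial ADP receptor gene, was at 50.8 and 47.8 CPM in WT and 49.8 and 44.4 CPM in GS (-0.07 ± 0.18), and Tmem119 differed by 0.16 ± 0.19. The genotypes overlapped in Gfap and P2ry12. Among 12 phagocytic microglia genes, Trem2 (-0.09 ± 0.34) and Tyrobp (-0.11 ± 0.30) did not pass, and the median was 0.00094. After injury 13 of 13 homeostatic microglia genes and 12 of 12 phagocytic ones had positive mean differences, against 9262 of all 18813 genes. Their medians were 0.29 and 0.29, and none was called. The summed homeostatic level was 895 and 1380 CPM in WT and 1388 and 1684 CPM in GS at 3 d. At 15 d it was 1046 and 1532 CPM in WT and 1556 and 2034 CPM in GS. The WT replicates thus lay far apart at both stages, with replicate 1 lowest, and the genotypes overlapped at 6 h.

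For 18 myelin genes the median was 0.00045. Mbp was at 3314 and 3465 CPM in WT and 3439 and 3737 CPM in GS (0.08 ± 0.097). Opalin, a myelin membrane gene of mature oligodendrocytes, was the exception at an unadjusted p under 0.05, at 23.1 and 20.3 CPM in WT and 17.8 and 11.8 CPM in GS (-0.55 ± 0.18, edgeR adjusted p = 0.320). For 13 oligodendrocyte precursor genes the median was 0.028, and Pdgfra overlapped (-0.09 ± 0.096). Reactive astrocyte genes had a median of 0.13 over 25, which was 0.062 without GS intact replicate 1, and Lcn2, their most inducible member, was at 0.338 and 1.45 CPM in WT and 2.29 and 2.98 CPM in GS (1.57 ± 0.70). EdgeR and DESeq2 called none in these glial lists.

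Leukocyte genes were low, and choroid plexus and cortical genes followed 1 library each. The summed level of 10 leukocyte and border macrophage genes was 13.8 and 12.4 CPM in WT and 16.7 and 13.4 CPM in GS, and the defining genes Ccr2, Cd3e, S100a8 and S100a9 were outside the table. For 18 choroid plexus genes the median was 1.36, with 12 positive at an unadjusted p under 0.05. GS replicate 1 set this value, and with both first intact libraries left out the median was -0.16. For 18 cortical genes it was -0.60, and without WT intact replicate 1 it was 0.16. Among 19 genes of fibroblasts and meninges, Col6a1, a collagen VI gene, was at 167 and 135 CPM in WT and 105 and 65.8 CPM in GS (-0.82 ± 0.20, edgeR adjusted p = 0.219), opposite to Col1a1 (0.24 ± 0.23) and Col1a2 (0.27 ± 0.30).

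Innate immune, cycling and other neighbouring-tissue genes were not called. Among 12 complement and integrin receptor genes the median was 0.20, both GS libraries lay above both WT libraries in 8 (against 22.4% of all genes) and 1 had an unadjusted p under 0.05. The median ran from 0.11 with the cortical score to 0.39 with the choroid plexus score as a covariate, and the complement genes C1qa (0.15 ± 0.21) and C1qb (0.22 ± 0.19) did not pass. Among 20 interferon response and MHC genes, 0 had an unadjusted p under 0.05 and the median was 0.13, but -0.087 with both first intact libraries left out, with the interferon regulator gene Irf7 at 0.244 to 0.804 CPM in the 4 libraries. The proliferation marker Mki67 was at 0.641 and 2.22 CPM in WT and 0.906 and 1.33 CPM in GS, and the median of 19 cell cycle genes was -0.17, and -0.0095 without WT intact replicate 2. The median was -0.27 for 18 ependymal genes, 1 of them higher and 1 lower at that p, but 0.30 without WT intact replicate 2 and -1.06 with both first intact libraries left out. It was -0.085 for 12 pallidum and basal forebrain genes, where Lhx6 differed by -0.11 ± 0.10, and 0.087 without WT intact replicate 2. Among 5 erythrocyte genes it was 0.20, and 0.038 without GS intact replicate 2, with the haemoglobin gene Hba-a1 at 0.807 to 1.97 CPM. EdgeR and DESeq2 called none of the genes in these lists.

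**Figure D5:**
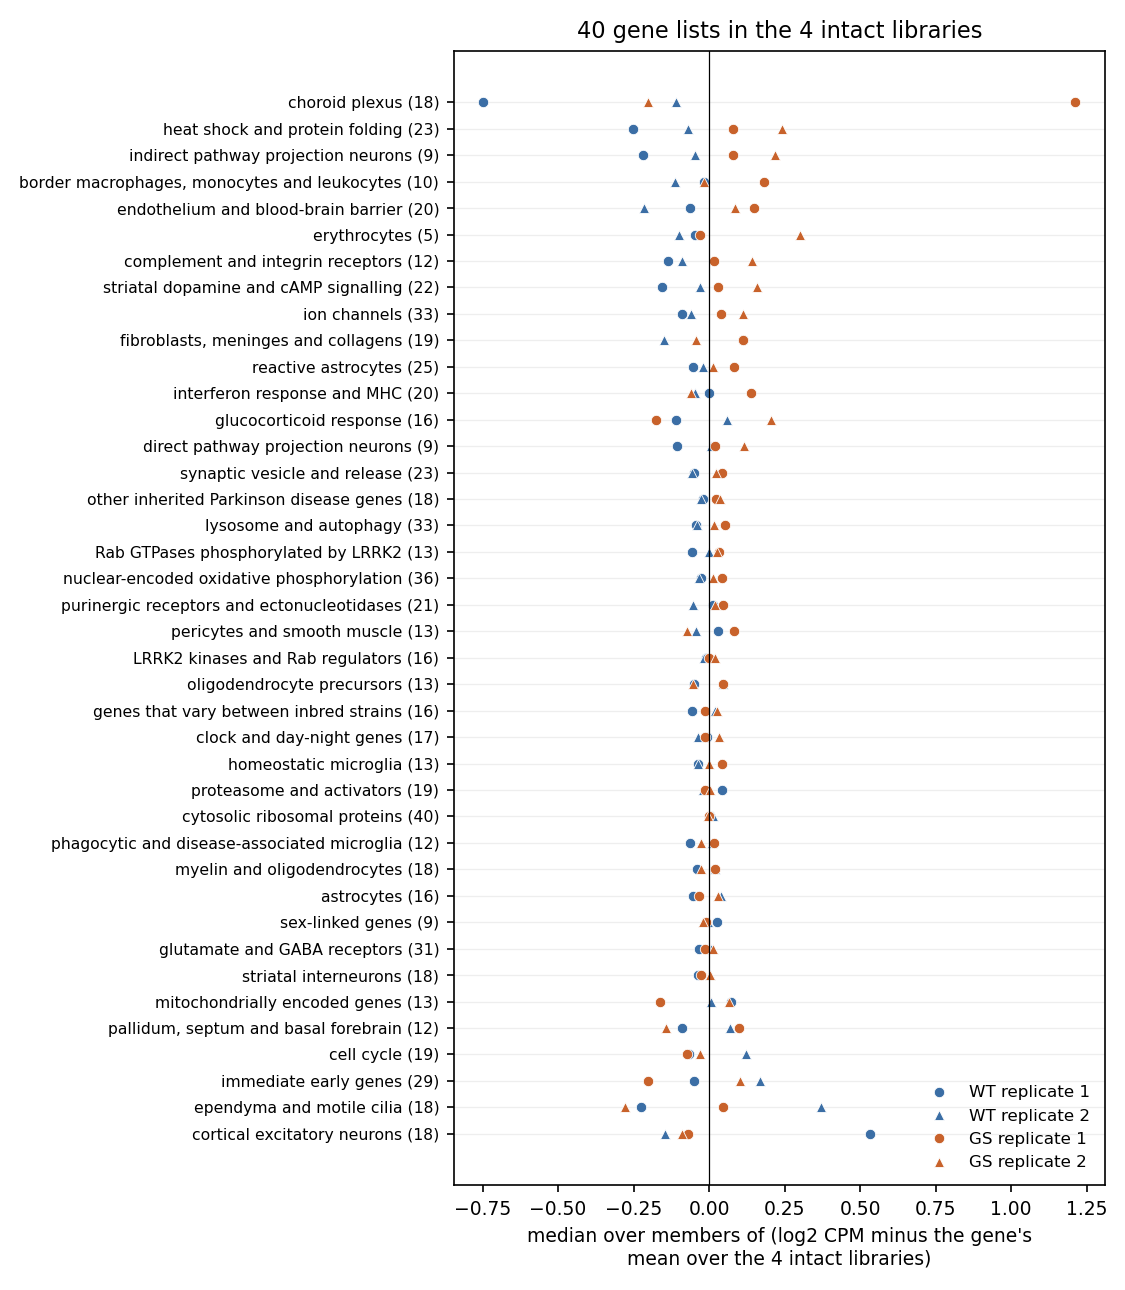
Median over the members of each of 40 gene lists (number tested in brackets) of the log2 CPM minus the gene's mean over the 4 intact libraries (horizontal axis), with 1 point per library. The choroid plexus list is set by GS replicate 1 and the cortical list by WT replicate 1. The heat shock, indirect pathway, dopamine and cAMP, ion channel and endothelial lists have both GS points to the right of both WT points. Other lists share this, among them complement receptors, reactive astrocytes, direct pathway, synaptic vesicles, lysosome, oxidative phosphorylation, purinergic, Rab GTPase and Parkinson disease genes.

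Genes of energy supply and protein synthesis had small differences. The medians were 0.052 for 36 nuclear-encoded genes of oxidative phosphorylation and 0.0023 for 40 cytosolic ribosomal protein genes. In both lists the 95% interval of every member excluded a 1.5-fold difference, against 61.8% of all genes. Ndufa1, a complex I subunit gene, had 0.24 ± 0.098, and Rpl3 had -0.07 ± 0.061. The 13 mitochondrially encoded genes had a median of -0.081 and their summed level was lowest in GS replicate 1 (104058 CPM, against 116530 to 121877 CPM in the other 3). Among 33 lysosome and autophagy genes, a system in which LRRK2 acts, the median was 0.061. In this list 28 intervals excluded a 1.5-fold difference, against 61.8% of all genes. The 1 member at an unadjusted p under 0.05 was the autophagosome gene Map1lc3b (139 and 144 CPM in WT, 162 and 165 CPM in GS, difference 0.20 ± 0.061). Lamp1 was level (0.01 ± 0.13). EdgeR and DESeq2 called none of these genes.

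Receptors for ATP and adenosine, which the injected groups of the study would engage, were mostly level before injury. Of 21 purinergic genes 2 had an unadjusted p under 0.05 (against 10.9% of all genes), Adora2a and Adora1 (0.17 ± 0.071). P2rx7, the ATP-gated channel gene, was at 10.4 and 11.4 CPM in WT and 10.4 and 10.7 CPM in GS (-0.05 ± 0.19), and P2rx4 differed by 0.05 ± 0.18. The ectonucleotidase genes Entpd1 (0.18 ± 0.12) and Nt5e (0.04 ± 0.17) did not pass. EdgeR called none, and DESeq2 called Adora2a.

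Genes used to check the animals were not called. Among 16 genes that vary between inbred strains, Nnt was at 37.4 and 37.9 CPM in WT and 38.3 and 36.4 CPM in GS (-0.01 ± 0.065) and Gabra2 differed by 0.01 ± 0.096, with a list median of 0.025. At an unadjusted p under 0.05, 3 of the 16 were higher and 1 was lower in GS, against 10.9% of all genes in either direction, and the differences ran from -0.33 to 0.20. Ddx3y, a Y-linked gene, was at 50.7 and 51.1 CPM in WT and 49.9 and 49.6 CPM in GS.

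Across all genes the intact difference was a poor guide to the injured one. The 2 comparisons share no library. Of 18813 genes 51.6% had the same sign in both, and Pearson's r across genes was 0.109, where genes are not independent replicates. Of the 2056 genes at an unadjusted p under 0.05 in intact striatum, 1144 (55.6%) had the same sign after injury, and their median absolute log2 fold change was 0.30 in intact and 0.057 in injured striatum. These genes were selected on their intact values, which enlarges the first of these medians. Psme4 was the gene called in both.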

How the data were processed

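RNA of mouse striatum was sequenced in 16 libraries, and the authors deposited raw read counts per gene for 19457 genes. RNA was extracted with RNeasy and libraries were made with TruSeq kits, per the labels' protocols. The build was mm10 and FastQC 0.11.7 was used, per the submitters' processing notes. Aligner, counter and strand setting: not given in the sources used here. Columns named NT were read as WT. The smallest count in the table is 1, so genes at 0 in some library fall outside it.

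The fit used edgeR 4.0.16 in R 4.3.3: filterByExpr by group (18813 genes kept, 644 removed), TMM scaling, and a quasi-likelihood model with 1 coefficient for each of 8 groups over all 16 libraries (8 residual degrees of freedom, common biological coefficient of variation 10.1%). Contrasts were GS minus WT intact, the mean of GS minus WT over the 3 injured stages, and their difference, with Benjamini-Hochberg adjustment over all genes. Standard errors are the absolute log2 fold change over the square root of F, and 95% intervals use 14.4 degrees of freedom, so both are approximate. Replicates differed beyond counting noise, so depth was not the main limit. RefSeq positions (GRCm38.p6) matched 18768 tested genes by Gene ID. The fit was also run on simulated counts, drawn independently for each gene and library from its own means and spread. Such counts hold no uneven cortical or choroid plexus tissue, so they do not test the fit against it.

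The comparison and the 40 gene lists were chosen with earlier results of these data known, and lists were described by counts and medians, without a test. The rule for naming took called genes of at least 1 CPM without overlap, Lrrk2, and the first 2 measured members of a list. Other genes named in the text, mainly list members at an unadjusted p under 0.05, were chosen after their values were seen. Alternatives were RLE factors, DESeq2 1.42.0, limma-voom (limma 3.58.1), other filters, the replicate number as a block, marker scores as covariates, a fold threshold of 1.2, fewer libraries, and each library left out. Some list members are not reported here by name.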

Additional observations from a re-analysis of the deposited data

How the results depend on the processing

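The count of 3 genes in intact striatum was 5 with RLE factors, 6 with a stricter filter (mean of at least 1 CPM), 6 with limma-voom and 165 with DESeq2. It was 1 with the choroid plexus score as a covariate, with only the 4 intact libraries fitted, with both first intact libraries left out (1 library a side, assumed to vary like the other groups) and with the fold threshold. Without each library in turn it ran from 1 to 26, with 26 without GS intact replicate 1, 6 without WT intact replicate 2 or either WT 3 d library, and 1 without WT intact replicate 1, GS intact replicate 2, any 6 h library or either GS 15 d library. The injured count of 1 was 2 with the cortical score, 2 with the cortical and choroid plexus scores together (added after seeing the data), 23 with DESeq2, and 1 to 3 without each library. The count of 0 for the difference of these contrasts was 143 with DESeq2 and 0 to 2 without each library (2 without WT 3 d replicate 2). The cause was not tested.

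With the replicate number as a block the intact count was 5 and the injured count 2. Over 28 pairs of groups the same-numbered deviations correlated at -0.161 to 0.320, over 0.1 in 6. The highest value was between WT at 3 d and WT at 15 d, and WT and GS intact had 0.105. The numbers thus do not pair the samples over the whole series, and pairing in part of it was not tested.

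Bach2 and Ldlrad4 were not called in those fits with a count of 1, nor with both scores together. Psme4 was called under all 28 alternatives (highest adjusted p 0.0228, only the intact libraries). With 2 libraries a side, the 95% interval excluded a 1.5-fold difference for 61.8% of genes.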
